A study of Mus musculus with 2 samples.

Results

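The G2 and mitosis genes described here are the 54 mouse genes of the list with which single cells are commonly scored for the G2 and M phases, matched by symbol to 54 of the 33696 genes counted in both libraries. Single-cell RNA sequencing was performed on cells from the amputation wound of the middle phalanx (P2) of neonatal ICR mice in 2 libraries, 1 for FGF8 and 1 for bovine serum albumin (BSA). In both, hindlimb digits 2 and 4 of male and female pups were amputated through P2 at postnatal day 3, a bead soaked in FGF8 (500 ng/µl) or in 0.1% BSA was implanted at postnatal day 7, and 20 digits from 5 mice were pooled 24 h later, at postnatal day 8. The BSA bead is therefore the control, and both groups carried the same wound. The epithelium around the digits was taken off, and the tissue beyond the P2 stump was used. The paper states that the FGF8 pool likely held some non-regenerative digits. With 1 library per group no test between groups was possible: every interval below is a 95% interval that covers counting error only, and treatment, pool of animals, sex make-up, dissection and library cannot be told apart.

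A cell that has copied its DNA leaves G2 when CDK1, bound to a B-type cyclin, becomes active. The chromosomes are condensed, attached through their kinetochores to a spindle of microtubules, held until the spindle checkpoint is satisfied, and released when the anaphase-promoting complex marks securin and the cyclins for destruction. Most genes for these proteins are transcribed late in the cell cycle and switched off in resting cells, so their transcripts mark cells that are dividing or about to divide. Some members, among them Hmgb2, Cbx5, Ctcf, Tmpo, Smc4, Tubb4b and Jpt1, are also used by cells outside G2 and mitosis. There were 14 of this kind, and the other 40 are called restricted members below. The name does not mean that these data show them only in dividing cells. Among the 40, Gas2l3 in Schwann-like cells and Cks2 and Kif23 in neutrophil-like cells (clusters described below) had more CPM than in fibroblast-like cells.

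Late cell cycle transcription is known to rest on the cell cycle genes homology region (CHR), read by the DREAM and MuvB complexes, often beside CCAAT boxes bound by NF-Y. Both motifs were searched in promoters of RefSeq (GRCm38.p6), each 250 bases before to 50 after a start site, on both strands, with TTTGAA or TTCGAA as the CHR and CCAAT as the box. Of the 54 members, 47 had an entry. A CHR lay in the promoter of 36 of these 47 (76.6%), against 21.7% of the 27025 symbols with an entry, and a CCAAT box in 36 of 47 (76.6%), against 41.1%. Both were present for 29 members (61.7%), against 8.61% of all symbols. The match of letters is a description of these windows and not of binding.

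The 100 bases before the start are shown for 6 members with a CHR within 30 bases of it, chosen to cover several roles, and for 2 without a CHR in the window, Birc5, which was among the members with the higher ratios, and Cbx5, which had the lowest. Cbx5 had 2 entries, of which the first is shown, and the other held neither motif. Capitals mark CHR and CCAAT matches on either strand, and all are written 5′ to 3′ on the strand of the gene.
Cdc20 (chr4:118437344-118437443, minus strand): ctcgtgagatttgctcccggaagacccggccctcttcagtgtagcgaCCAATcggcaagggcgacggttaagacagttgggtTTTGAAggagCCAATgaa
Ube2c (chr2:164769829-164769928, plus strand): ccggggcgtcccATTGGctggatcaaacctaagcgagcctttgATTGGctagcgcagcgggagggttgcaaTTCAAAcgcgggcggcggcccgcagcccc
Top2a (chr11:99024190-99024289, minus strand): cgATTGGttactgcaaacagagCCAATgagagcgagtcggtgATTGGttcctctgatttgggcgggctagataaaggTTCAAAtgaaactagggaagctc
Cks1b (chr3:89418292-89418391, minus strand): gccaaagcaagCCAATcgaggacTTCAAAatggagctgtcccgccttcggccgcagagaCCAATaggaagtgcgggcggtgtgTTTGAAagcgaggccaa
Kif11 (chr19:37376282-37376381, plus strand): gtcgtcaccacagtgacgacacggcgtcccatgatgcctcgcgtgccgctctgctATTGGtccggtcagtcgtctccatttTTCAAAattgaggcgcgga
Hmgb2 (chr8:57511743-57511842, plus strand): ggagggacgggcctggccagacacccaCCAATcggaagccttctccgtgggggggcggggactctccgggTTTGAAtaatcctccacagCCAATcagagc
Birc5 (chr11:117849137-117849236, plus strand): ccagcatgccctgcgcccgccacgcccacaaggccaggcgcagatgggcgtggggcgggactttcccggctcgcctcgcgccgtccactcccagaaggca
Cbx5 (chr15:103239853-103239952, minus strand): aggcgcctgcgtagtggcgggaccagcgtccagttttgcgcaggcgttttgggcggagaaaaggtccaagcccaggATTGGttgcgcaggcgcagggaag
Some windows held more than 1 CHR match, and the one nearest the start is given. The CHR of Cdc20 began 18 bases before the start, that of Cks1b 17, Kif11 19, Top2a 23, Ube2c 29 and Hmgb2 30. Members with and without a CHR had similar ratios of FGF8 over BSA in the cells described next, with a median log2 ratio of 1.23 for the 36 with it and 1.31 for the 11 without.

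The libraries held 124889213 UMIs in 7249 barcodes (FGF8) and 67739460 UMIs in 3703 barcodes (BSA), of which 6715 and 3252 cells were kept, with a median of 12251 and 15377 UMIs per cell; 6 barcodes were shared. Clusters were named from marker genes, and "fibroblast-like" refers to the largest, with 3324 FGF8 and 1713 BSA cells. Within it the 10 fibroblast markers were lower in FGF8 as a group, at 24605 against 44852 summed CPM (the UMIs of a gene scaled to an equal total of UMIs in each library and cell type), with 0 of 10 higher. Macrophage markers summed to 41.3 and 36.2 CPM, endothelial markers to 23.6 and 17.4 CPM and keratinocyte markers to 131 and 123 CPM in these cells. Larger differences were found for neutrophil markers (39.3 and 16.9 CPM, 7 of 10 higher), T or NK cell markers (12.02 and 3.46 CPM, 3 of 7 higher) and osteoclast markers (267 and 468 CPM, 1 of 5 higher). The part of any of these in the results was not tested.

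In fibroblast-like cells 53 of the 54 members had more CPM in FGF8 than in BSA, and all 54 had at least 10 UMIs, the minimum used for every gene. The share of all 20053 genes with this minimum that were higher in FGF8 was 43.9%. The median log2 ratio of CPM, FGF8 over BSA, was 1.24 for the members and -0.07 for all genes, and the summed level of the members was 5218 CPM in FGF8 and 2380 CPM in BSA. A log2 ratio above 1 was found for 38 of the 54 members and for 6.5% of all genes. For the same 53 members the counting interval lay above 0, and the exception was Cbx5. Among the 40 restricted members the median was 1.32 and 34 lay above 1, and among the other 14 it was 0.86 with 4 above 1.

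**Figure D1:**
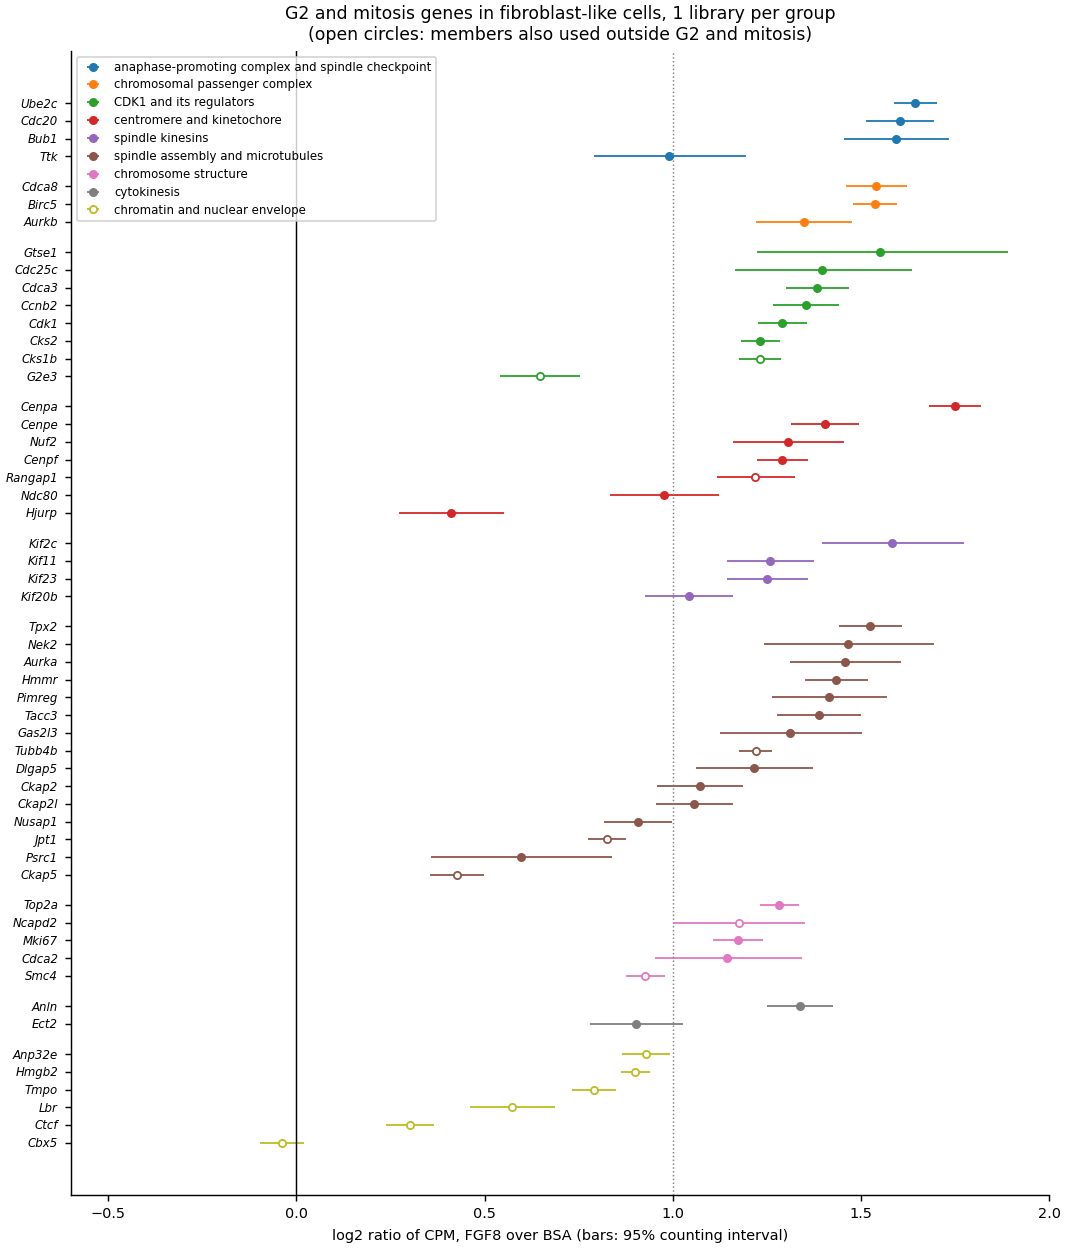
Log2 ratio of CPM, FGF8 over BSA, for each of the 54 members in fibroblast-like cells (x axis), grouped and coloured by role, with the 95% counting interval as a bar; open circles are the 14 members also used outside G2 and mitosis. The values run from -0.04 (Cbx5) to 1.75 (Cenpa), and no member of the chromatin and nuclear envelope group passes 1, the dotted line.

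The kinase subunits and cyclin that drive entry into mitosis were all higher in FGF8. CDK1 and its regulators numbered 8, all higher, with a median log2 ratio of 1.32 and 7 above 1. Cks2, a small subunit that docks substrates to cyclin-dependent kinases, had 16487 UMIs in FGF8 (236 CPM) and 3570 in BSA (100.4 CPM), a log2 ratio of 1.23 (1.18 to 1.29). Its relative Cks1b, which also serves the destruction of p27 in G1, had 14541 and 3149 UMIs (208 and 88.6 CPM), also 1.23 (1.18 to 1.29). The lowest of the group was G2e3, a ubiquitin ligase counted among the members used elsewhere, at 0.65. Outside the list, Ccnb1, the cyclin B1 partner of CDK1, stood at 63.6 and 20.1 CPM, a log2 ratio of 1.66 (1.55 to 1.78).

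The highest group was the anaphase-promoting complex and spindle checkpoint, with a median of 1.60 over 4 members and 3 above 1. Ube2c, the E2 enzyme that starts ubiquitin chains for this complex, had 17520 UMIs in FGF8 (251 CPM) and 2852 in BSA (80.2 CPM), a log2 ratio of 1.64 (1.59 to 1.70). Cdc20, its activator at the start of anaphase, had 6887 and 1153 UMIs (98.6 and 32.4 CPM), 1.60 (1.51 to 1.70). Bub1, a checkpoint kinase of the kinetochore, had 2887 and 487 UMIs (41.3 and 13.7 CPM), 1.59 (1.45 to 1.73). The fourth, Ttk (the checkpoint kinase MPS1), had fewer UMIs (996 and 255) and a ratio of 0.99.

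The chromosomal passenger complex corrects faulty attachments and later directs cleavage. Its 3 members were all above 1, with a median of 1.54. Birc5 (survivin) had 15921 UMIs in FGF8 and 2790 in BSA (228 and 78.5 CPM), 1.54 (1.48 to 1.60), and Cdca8 (borealin) had 8257 and 1444 (118 and 40.6 CPM), a log2 ratio of 1.54 (1.46 to 1.62). Their kinase Aurkb had 1.35.

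Genes of the centromere and kinetochore spread the most. Of 7 members 5 were above 1, with a median of 1.29. Cenpa, the histone H3 variant that marks the centromere, had the highest ratio of all 54 members, with 12846 UMIs in FGF8 and 1944 in BSA (184 and 54.7 CPM), 1.75 (1.68 to 1.82). Cenpf, a large protein of the outer kinetochore, had 10565 and 2197 UMIs (151 and 61.8 CPM), 1.29 (1.22 to 1.36). Hjurp, the chaperone that loads CENP-A onto centromeres in the following G1, was far lower than Cenpa itself, with 1521 and 582 UMIs (21.8 and 16.4 CPM), a log2 ratio of 0.41 (0.27 to 0.55). On GRCm39 Cenpa lies at chr5:30824121-30842921.

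The motor proteins of the spindle were 4 of 4 above 1, with a median of 1.26. Kif23, which bundles the midzone for cytokinesis, had 4009 and 857 UMIs (57.4 and 24.1 CPM), 1.25 (1.14 to 1.36), and Kif11, which pushes the poles apart, had 3461 and 736 UMIs (49.5 and 20.7 CPM), 1.26 (1.14 to 1.38). Kif2c, a depolymerase at centromeres, was among the 5 highest of all members at 1.58 (1.40 to 1.77), from 1590 and 270 UMIs (22.8 and 7.59 CPM). The 15 members of spindle assembly and microtubules had a median of 1.22, with 11 above 1. Tubb4b, a beta-tubulin, had 23552 and 5143 UMIs (337 and 145 CPM), 1.22 (1.18 to 1.26). Jpt1, expressed well beyond mitosis, was lower at 0.83 (0.77 to 0.88), with 13754 and 3951 UMIs (197 and 111 CPM). Ckap5, a microtubule polymerase that cells also need in interphase, had the smallest difference of this group, with 5817 and 2202 UMIs (83.2 and 61.9 CPM), 0.43 (0.36 to 0.50).

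Chromosome structure had a median of 1.17, with 4 of 5 above 1. Top2a, the topoisomerase that untangles sister chromatids, had 17296 and 3618 UMIs (248 and 102 CPM), 1.28 (1.23 to 1.33). Smc4, a core subunit of condensin, had 13932 and 3728 UMIs (199 and 105 CPM), 0.93 (0.88 to 0.98). Both cytokinesis genes were higher in FGF8. Anln (anillin), which organizes the contractile ring, had 6359 and 1281 UMIs (91.0 and 36.02 CPM), 1.34 (1.25 to 1.42), and Ect2, which activates RhoA for the ring, had 2499 and 680 UMIs (35.8 and 19.1 CPM), 0.90 (0.78 to 1.03).

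Chromatin and nuclear envelope genes had the smallest differences, with a median of 0.68 and 0 of 6 above 1. All 6 are members also used outside G2 and mitosis. Hmgb2, a DNA-bending protein, had 25340 and 6907 UMIs (363 and 194 CPM), 0.90 (0.86 to 0.94), and Tmpo, the lamina protein LAP2, had 10446 and 3071 (149 and 86.4 CPM), 0.79 (0.73 to 0.85). Lbr, the lamin B receptor, had 2496 and 854 UMIs (35.7 and 24.02 CPM), 0.57 (0.46 to 0.69), and Ctcf, the insulator protein that all cells use, had 6784 and 2803 (97.1 and 78.8 CPM), 0.30 (0.24 to 0.36). Cbx5 (the heterochromatin protein HP1-alpha) had 7026 and 3673 UMIs, equal to 101 CPM in FGF8 and 103 CPM in BSA, and its ratio of -0.04 had an interval that spanned 0 (-0.10 to 0.02). On GRCm39 Cbx5 lies at chr15:103099505-103148419.

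Most of the members named here were detected in a larger share of FGF8 than BSA cells when each cell was thinned to 2000 UMIs. Birc5 was found in 20.5% of FGF8 and 6.64% of BSA fibroblast-like cells, Top2a in 18.3% and 7.50%, and Mki67, which coats mitotic chromosomes and is widely used as a stain for dividing cells, in 14.1% and 5.84%. Hmgb2 was the more widespread at 29.98% and 17.8%, and Cbx5 was found in 17.7% of FGF8 and 18.6% of BSA cells. Hmgb2 and Tubb4b have close relatives in the genome, and reads that fit several genes were not counted, so their values are less certain than those of other members.

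How many members a cell held was compared after each cell was thinned to 2000 UMIs, since a deeper cell detects more genes; 152 FGF8 and 87 BSA cells with fewer UMIs were left out. At least 10 of the 54 members were detected in 705 of 3172 FGF8 cells (22.2%, Clopper-Pearson interval 20.8 to 23.7%) and in 123 of 1626 BSA cells (7.56%, 6.33 to 8.96%), a ratio of 2.94 (2.42 to 3.59). At least 5 were detected in 35.7% and 12.8%, and at least 20 in 5.61% and 2.34%. No member at all was detected in 10.9% of FGF8 and 19.9% of BSA cells. Without thinning, the share with at least 10 members was 59.1% and 41.2%, a smaller ratio of 1.44, at a median of 18606 and 20135 UMIs per cell. Over all kept cells the thinned shares were 15.8% and 8.39%, a ratio of 1.89 (1.64 to 2.18). In the paper, PCNA staining of digits 24 h after the bead showed no difference in cell proliferation between FGF8 and BSA. Its single-cell data showed enrichment of cell proliferation terms in fibroblasts after FGF8. Protein in sections and RNA in sorted-out cell types are unlike measures, and they were not compared here.

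**Figure D2:**
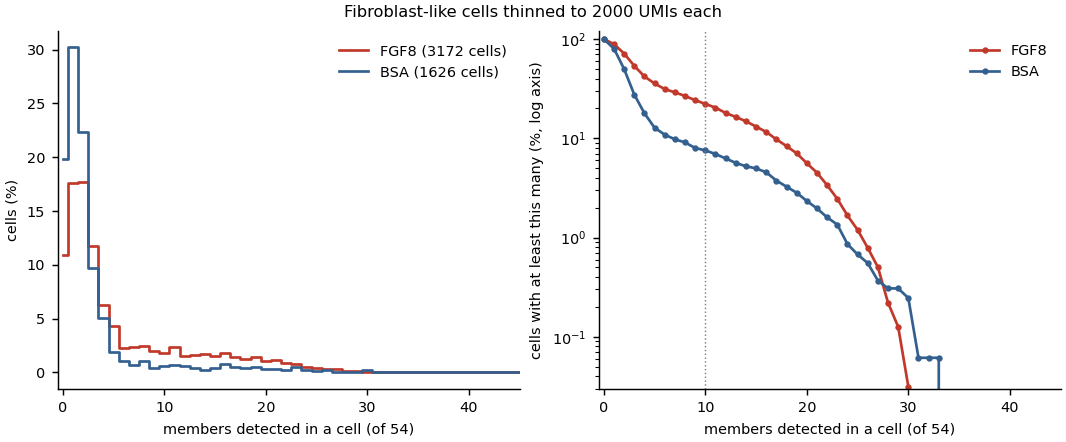
Number of the 54 members detected in each fibroblast-like cell after thinning to 2000 UMIs (x axis), as percent of cells (left) and as percent of cells with at least that many (right, log axis), for FGF8 (red) and BSA (blue). At 10 members, the dotted line, the FGF8 curve stands at 22.2% and the BSA curve at 7.56%, and both lie below 1% from 26 members on.

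The transcripts of restricted members came almost entirely from such cells. In the median restricted member, 98.8% of FGF8 UMIs and 97.3% of BSA UMIs lay in fibroblast-like cells that detected at least 10 other members before thinning. For the 14 members used elsewhere the medians were 91.5% and 72.6%. Cells with at least 10 members made up 59.1% and 41.2% of fibroblast-like cells and held 79.4% and 58.9% of the UMIs, so this limit takes in much of the cluster at full depth.

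Among cells that already held many members, most members differed less between the libraries. The log2 ratio was closer to 0 than over all fibroblast-like cells for 53 of 54 members in cells with at least 10 others and for 52 in cells with at least 20, where Cbx5 (-0.41) and Hjurp (-0.57) were the exceptions. Because the cells were chosen by the other members, the choice itself makes the libraries more alike in these genes. The share of all genes that moved closer to 0 was not computed, so no conclusion on the level within dividing cells is drawn. In cells with at least 10 other members at full depth, the median log2 ratio of the 54 members was 0.86, and 53 were higher in FGF8, where 42.5% of all genes were higher and the median of all genes was -0.09. In cells with at least 20 other members (1142 FGF8 and 210 BSA cells) the median was -0.06, 20 members were higher and 34 lower, and the values ran from -0.60 to 0.57. Of all genes in cells with at least 20 members 41.2% were higher, with a median of -0.11. After thinning to 2000 UMIs, in cells with at least 10 other members (705 and 123 cells), the median was -0.22, again with 20 higher and 34 lower, and 46.3% of all genes were higher in such cells, with a median of -0.06. Psrc1, a spindle protein picked after its values were seen, had the highest value there, 1.24, from few UMIs. Cenpa, for example, went from 1.75 over all fibroblast-like cells to 0.35 in cells with at least 20 other members, and Nusap1, which bundles spindle microtubules, from 0.91 to -0.50. Both were picked for display after their values were seen.

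**Figure D3:**
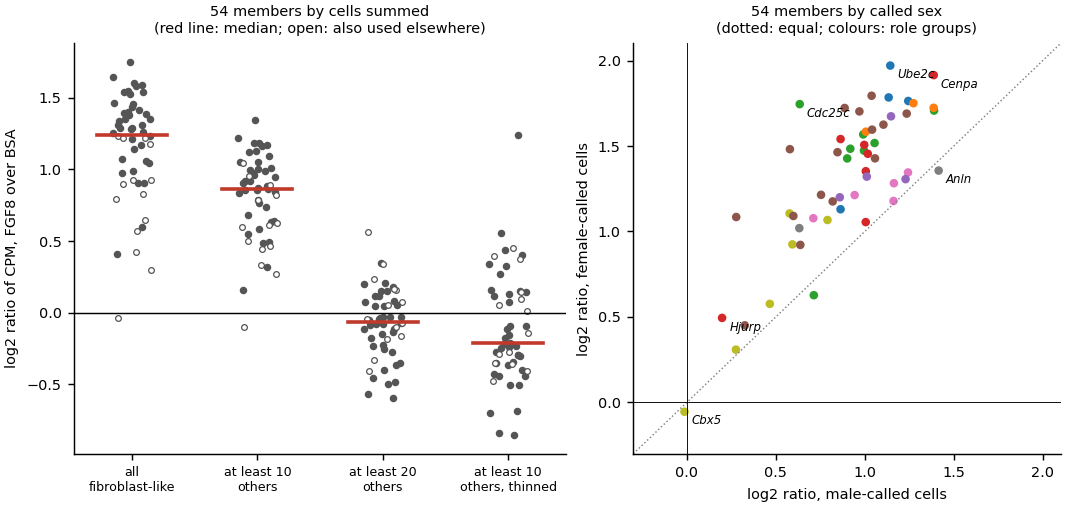
Left, log2 ratio of CPM, FGF8 over BSA, of the 54 members when summed over all fibroblast-like cells, over those with at least 10 or 20 other members, and over thinned cells with at least 10 others; red lines are medians (1.24, 0.86, -0.06 and -0.22). Right, the ratio of each member in male-called (x axis) and female-called cells (y axis), coloured by role. Above the dotted line of equal values lie 51 of 54 points, and the share of all genes above it was not computed.

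Since the pools differed in sex, the members were also compared within female-called and male-called cells. Of fibroblast-like cells, 684 FGF8 and 1190 BSA cells carried Xist transcripts without Y-linked ones, and 2129 and 296 the reverse. The median ratio was 1.39 among the former and 0.98 among the latter, and 53 of 54 members were above 0 in each, against 42.9% and 44.9% of all genes. A ratio above 1 was found for 46 and 24 members, against 6.12% and 6.56% of all genes. The ratio was larger in female-called cells for 51 members. The share of all genes with a larger ratio in female-called cells was not computed, so this count may hold a shift of genes in general. Whether the difference between the libraries depends on sex was not tested. The thinned share with at least 10 members was 22.7% in FGF8 and 6.99% in BSA for female-called cells, and 22.3% and 8.97% for male-called cells.

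Multi-member cells were found in every subcluster of the fibroblast-like cells, which were re-clustered without the 54 members, the other cell cycle lists and sex-linked genes among the features. The subcluster led by Prg4 (lubricin), Mmp3 and the histone H1f5 held 70.8% of all FGF8 cells with at least 10 members and 69.1% of such BSA cells. It made up 28.4% of FGF8 but 14.2% of BSA fibroblast-like cells. The part of this difference in the shares over all fibroblast-like cells was not tested. Within it the share was 52.9% of 944 FGF8 cells (49.6 to 56.1%) and 35.1% of 242 BSA cells (29.1 to 41.5%), and the median log2 ratio of the members was 0.35. Histone genes among its leading genes are themselves made in S phase, so this subcluster was not free of the cell cycle. In the subcluster led by Fmod and Comp, genes of tendon and cartilage matrix, the share was 12.2% in FGF8 and 3.15% in BSA, with a median of 1.63. In that led by Lpl and Dlk1 it was 12.4% and 2.70%, with a median of 1.64. The subcluster led by Chodl and Sema3a had the lowest shares, 3.13% and 1.00%, with a median of 0.92. The subcluster led by Lars2 and Camk1d, of low depth (a median of 2473 and 2452 UMIs), had 17.3% and 9.17%, and that led by Coch and Nrg1 6.09% and 2.65%. The members' summed level was higher in FGF8 in each of the 6 subclusters, from 1558 against 1055 CPM in the Chodl and Sema3a subcluster to 7801 against 5928 CPM in the Prg4 subcluster.

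**Figure D4:**
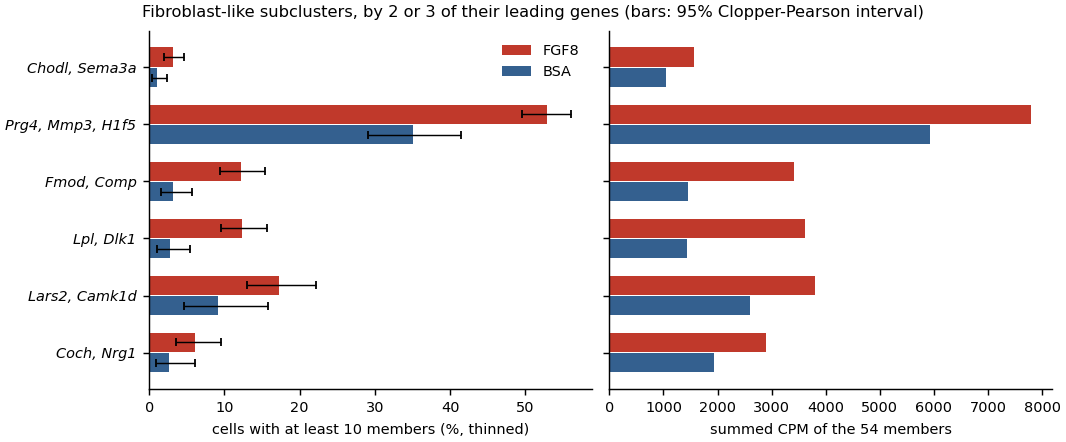
Share of cells with at least 10 members after thinning to 2000 UMIs (left, bars are 95% Clopper-Pearson intervals) and summed CPM of the 54 members (right) in 6 fibroblast-like subclusters, each named by leading genes, for FGF8 (red) and BSA (blue). The subcluster led by Prg4, Mmp3 and H1f5 stands above the others in both libraries, at 52.9% and 35.1%.

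Genes outside the cell cycle lists that marked cells with at least 10 members, compared with cells with under 2 (both thinned, with the same direction in both libraries), are given by the CPM of both libraries pooled, in which FGF8 gave 705 of the multi-member cells and BSA 123. Only genes detected in at least 25% of the multi-member cells were ranked. This filter favours genes that are high in those cells and leaves out genes nearly absent from them, at both ends of the ranking. Of the genes ranked, the 10 with the largest ratio were the following. H1f5 (1242 against 11.1 CPM), H2ac8, H4c4 and H1f4 are histones packed onto new DNA, Pclaf and Tk1 serve DNA synthesis, Diaph3 nucleates actin, H2ax marks DNA breaks and Lmnb1 is a lamin. Il1rl1, the receptor of IL-33, stood at 230 against 26.2 CPM, a pooled log2 ratio of 3.13, with 2.72 within FGF8 and 2.80 within BSA. The cells with under 2 members were 904 of FGF8 and 814 of BSA, a mix unlike that of the multi-member cells. Il1rl1, H1f5 and H2ac8 were also among the leading genes of the Prg4 subcluster, which held 70.8% and 69.1% of multi-member cells. The comparison thus also sets that subcluster against the others, and the 2 were not separated. The 10 at the other end were Mfap4 (370 against 1949 CPM), Aspn, Mfap2, Eln, Dcn, Col3a1 (5114 against 13975 CPM) and Col1a2, which encode proteins of the extracellular matrix, and Plac9, Zbtb20 and Meg3. All 10 were closer to 0 within BSA than within FGF8, as for Col3a1 (-0.88 and -1.47) and Plac9 (-0.72 and -1.71), and the difference between the libraries was not tested.

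Other parts of the cell cycle were compared in the same fibroblast-like cells. Of all genes in these cells 43.9% were higher in FGF8 and 6.5% were above 1. Of 84 further G2 and mitosis genes outside the list, 79 were higher in FGF8 and 43 were above 1, with a median of 1.02. Plk1, the Polo-like kinase of mitotic entry, was the highest at 59.2 against 14.7 CPM, a log2 ratio of 2.01 (1.88 to 2.14), and Ccna2 (cyclin A2) had 1.43 and Foxm1, a transcription factor of late cell cycle genes, 1.13. The lowest was Cdc16, a subunit of the anaphase-promoting complex that cells hold throughout the cycle, at -0.20. Of 43 S phase genes 42 were higher, but 5 were above 1 and the median was 0.59. Pcna, the clamp of DNA polymerase, had 117 against 80.7 CPM, a log2 ratio of 0.53, the highest was Rrm2, a subunit of ribonucleotide reductase, at 1.48, and the lowest Wdr76 at -0.12. The order of G2 and mitosis genes above S phase genes was that of the medians, and the difference between the lists was not tested.

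The G1 cyclins, CDK inhibitors and genes of cell cycle exit had ratios in both directions: 10 of 17 were higher, 3 above 1 and 1 below -1, with a median of 0.13. Of all 20053 genes 43.9% were higher and 6.5% above 1, and 1023 were below -1. Ccnd1, the cyclin D1 induced by growth factors, had 303 against 93.7 CPM, a log2 ratio of 1.69 (1.64 to 1.75). The CDK inhibitor Cdkn1c (p57), a gene of quiescent and maturing cells, was lowest at 221 against 531 CPM, -1.26 (-1.29 to -1.23). Cdkn2a, which encodes the inhibitors p16 and p19ARF, was highest at 2.35 (1.96 to 2.77), from low counts of 582 and 58 UMIs.

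Beyond fibroblast-like cells the members' medians lay on both sides of 0. Cells with at least 10 members after thinning made up 5.76% of FGF8 and 4.84% of BSA macrophage-like cells, a ratio of 1.19 whose interval (0.69 to 2.11) spanned 1. Their members had a median log2 ratio of 0.46 against 0.06 for all genes, with 49 of 54 higher where 56.3% of all genes were. Smooth muscle or pericyte-like cells had shares of 17.8% and 10.6%, with overlapping intervals, a median of 0.45 and 50 of 54 higher, against 52.3% of all genes. In these the shares were 23.7% and 8.66% for female-called but 16.8% and 19.4% for male-called cells. Mast-like cells had 11 of 45 and 4 of 38 cells with at least 10 members, and 37 of the 43 members with at least 10 UMIs were higher, against 48.3% of all genes. This minimum counted both libraries together, so a member could meet it through FGF8 alone. No conclusion is drawn from the count of 37.

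Keratinocyte and endothelial genes both marked 1 unnamed cluster of 620 FGF8 and 415 BSA cells. Its depth was low, with a median of 3898 and 3249 UMIs. In it 25.6% of FGF8 and 21.1% of BSA cells held at least 10 members and 51 of 54 members were higher, against 58.3% of all genes. When cells were clustered without cell cycle genes, keratinocyte-like cells and cells led by endothelial genes formed separate clusters. The fibroblast-like cluster then held 3573 FGF8 and 1848 BSA cells, more than before. Where each cell of the unnamed cluster went was not traced, so not all of its cells can be called skin or vessel. A keratinocyte-like cluster of 237 FGF8 and 161 BSA cells had shares of 28.9% (22.9 to 35.5%) and 21.7% (14.6 to 30.4%), with 51 of 54 members higher, against 62.7% of all genes, and a median log2 ratio of 1.12. Its cells had a median of 12229 UMIs in FGF8 and 4996 in BSA, and with only cells of 500 to 6000 genes and under 10% mitochondrial UMIs the median was 0.57. A cluster led by the endothelial genes Gpihbp1, Emcn and Cldn5, with 18.9% and 22.3% multi-member cells, had a median of -0.08 and 22 of 54 members higher, against 51.2% of all genes.

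Schwann-like cells went the other way in their sums: 3 of 54 members were higher in FGF8, where 49.2% of all genes were, and the median was -0.38. At least 10 members were held by 12.7% of FGF8 (8.74 to 17.6%) and 17.8% of BSA cells (11.4 to 25.9%). The median was 0.33 in female-called cells and -1.27 in male-called cells, of which the BSA library had 18, and 0.19 with only cells of 500 to 6000 genes and under 10% mitochondrial UMIs. Gas2l3, which links actin to microtubules, is counted among the restricted members and was picked after its values were seen. It stood out in level there, with 253 CPM in FGF8 and 283 CPM in BSA, where fibroblast-like cells had 19.6 and 7.87 CPM. Chondrocyte-like cells had 2 of 138 and 2 of 59 cells with at least 10 members, and 25 of 46 members with at least 10 UMIs were higher, against 46.9% of all genes. Here too a member could meet the minimum through FGF8 alone, and no conclusion is drawn from the count of 25.

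Neutrophil-like and erythroid-like cells, which have largely stopped dividing, are given beside these shares as types that should hold few dividing cells. At least 10 members were held by 4 of 403 FGF8 and 1 of 148 BSA neutrophil-like cells (0.993% and 0.676%) and by 1 of 479 and 1 of 76 erythroid-like cells (0.209% and 1.32%), at a median of 2407 and 3214 UMIs per neutrophil-like and 6983 and 18542 UMIs per erythroid-like cell. The summed level was nonetheless not 0, and in neutrophil-like cells it was 2617 (FGF8) against 2193 CPM (BSA). There 41 of 45 members with at least 10 UMIs were higher in FGF8, against 60.5% of all genes. The median log2 ratio of these members was 1.38 (0.18 for all genes), with Hmgb2 at 564 against 806 CPM. The FGF8 library alone could meet the minimum, as for Birc5 with 76 and 2 UMIs, and Hmmr, at 0 in BSA, entered at 3 counts. The count of 41 and the median thus rest in part on very few BSA UMIs. They cannot be set beside the fibroblast-like values, and no conclusion is drawn from them. In erythroid-like cells 15 of 47 were higher, against 31.3% of all genes, and Ube2c had the highest level, at 66.8 and 110 CPM. The minimum could be met through FGF8 alone in these cells too. How much free RNA these droplets held was not estimated.

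**Figure D5:**
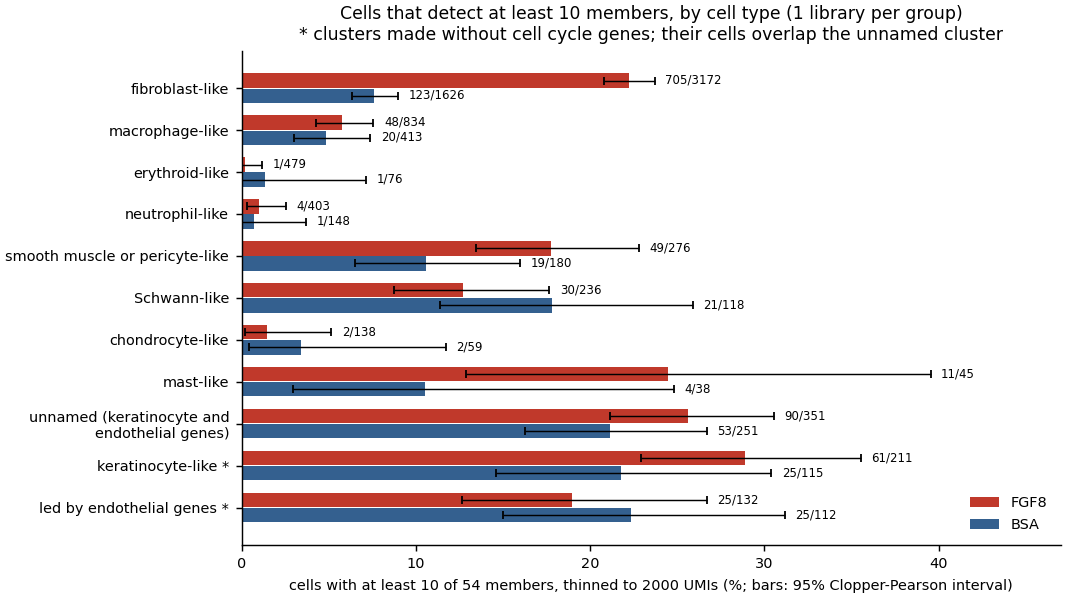
Percent of cells with at least 10 of the 54 members after thinning to 2000 UMIs (x axis) in each cell type, for FGF8 (red) and BSA (blue), with 95% Clopper-Pearson intervals and the counts of cells at the bar ends. The intervals of both libraries lie apart in fibroblast-like cells, at 22.2% and 7.56%, and overlap in the other types.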

How the data were processed

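Cells were captured with 10x 3′ chemistry, and the authors deposited raw UMI counts per gene and barcode from Cell Ranger 9.0.0 on GRCm39, a pipeline that counts confidently placed reads only. Cells with more than 200 and fewer than 7500 genes and under 15% mitochondrial UMIs were kept, normalized by SCTransform, integrated by CCA and clustered at a resolution of 0.05, with Seurat 5.3.0, sctransform 0.4.2 and R 4.3.3. Within each cell type the UMIs of a library were added up and compared as log2 ratios of CPM with exact conditional intervals, in Python 3.11.15 with numpy 2.4.6 and scipy 1.17.1. A gene at 0 in one library entered at 3 counts. Shares used cells thinned to 2000 UMIs, with 5000 as an alternative. Other filters, clusterings, thresholds and called sexes were also tried. The code was tested on simulated counts. Scrublet (scanpy 1.11.5) called no doublet, which does not show that none was present, and no cell was removed. Without the 361 FGF8 and 85 BSA cells of highest score, the fibroblast-like median was 1.25 and the ratio of shares 2.90. Those scores were held by 5.04% (FGF8) and 3.26% (BSA) of fibroblast-like cells with at least 10 members before thinning. For cells with 2 to 9 members the values were 2.18% and 0.99%.

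The members and all lists were chosen with earlier results of these data known. Full values are given for the 2 members of each role with most UMIs and the 5 highest and 5 lowest ratios, and for Ccnb1, Plk1, Ccna2, Foxm1, Pcna and the ends of each other list.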

Additional observations from a re-analysis of the deposited data

Results flagged for a closer look

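Barcodes with 7500 genes or more, left out of the main comparisons, held many members. After thinning to 2000 UMIs at least 10 members were detected in 150 of 274 such FGF8 barcodes (54.7%, 48.6 to 60.7%) and in 67 of 161 BSA barcodes (41.6%, 33.9 to 49.6%). Their median depth was 67797 and 64812 UMIs. With those called fibroblast-like by their markers (79 and 61) added back, the median log2 ratio of the members was 0.99 in place of 1.24. Whether they are dividing cells or doublets was not tested.

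The members' median log2 ratio was -0.38 in Schwann-like cells and 1.24 in fibroblast-like cells. The 2 cell types thus lay on opposite sides of 0 in the only pair of libraries, and the difference was not tested. In female-called cells (0.33) and with the stricter cell filter (0.19) the Schwann-like median lay above 0, on the same side as the fibroblast-like one.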

How the results depend on the processing

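No paired analysis was possible because each group has 1 library, and so only replicate number 1. In fibroblast-like cells the members' median log2 ratio was above 0 under each of 15 alternatives (0.98 to 1.45). It was 1.45 with 500 to 6000 genes and under 10% mitochondrial UMIs, 0.99 with no upper limit on genes, 1.13 after thinning, 1.145 with types called per cell, 1.39 for female-called cells and 0.98 for male-called ones, where 24 members lay above 1. The ratio of shares with at least 10 members was 1.44 unthinned and 2.40 for at least 20. Over all kept cells it was 1.19 unthinned, 1.63 with the stricter filter and 2.23 in female-called cells. The ratio within multi-member cells turned direction: 0.86 became -0.062 for at least 20 others and -0.22 after thinning to 5000 or 2000 UMIs, while it was 1.22 for at least 5, 0.95 for female-called cells and 0.66 for male-called ones. For macrophage-like cells the median was 0.17 in male-called cells and 0.28 with the stricter filter, and the ratio of shares was 0.809 in female-called cells. The Schwann-like median was 0.33 in female-called cells, 0.19 with the stricter filter and -1.27 in male-called cells, and the keratinocyte-like one was 0.57 with that filter. The cause of these shifts was not tested. Thinning to 2000 UMIs within multi-member cells, the reverse merge order (median 1.20) and all alternatives for Schwann-like and keratinocyte-like cells were chosen after seeing the data. Depth limits the rarer cell types, in which single cells set the shares.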
